A study of Mus musculus with 16 samples.

Results

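Interferon-stimulated genes (ISGs) were followed in the mouse heart after pressure overload, with and without the long noncoding RNA Cardinal. The group comprised 9 genes, chosen by name as widely used type I interferon-stimulated genes, and these are 9 of the 55487 genes in the count table. They are Irf7, a transcription factor of the interferon response, the antiviral effectors Ifit1, Ifit2, Ifit3, Oasl2, Rsad2 and Bst2, the ubiquitin-like modifier Isg15 and its protease Usp18. All 9 passed the filter on low counts that left 18275 genes for testing.

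Type I interferons are cytokines that are released when a cell senses foreign or misplaced nucleic acid. They bind a receptor of the subunits IFNAR1 and IFNAR2, whose kinases JAK1 and TYK2 activate transcription factors in the cytoplasm. These enter the nucleus and bind the interferon-stimulated response element in the promoters of ISGs, among them Irf7, which in turn raises interferon production. In the heart, ISGs are expressed by resident macrophages and infiltrating myeloid cells as well as by endothelial cells, fibroblasts and cardiomyocytes.

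The samples were 16 hearts from male mice, 4 in each of 4 groups. Ctrl animals were labelled WT, and KO animals, labelled CARDINAL-KO, came from a knockout of Cardinal made with CRISPR/Cas9, for which no restriction to a cell type is stated. TAC animals (transverse aortic constriction) had the aorta narrowed by a ligature, which raises the pressure the left ventricle works against. In sham animals the chest was opened and closed with no ligature placed. Both operations were done under isoflurane anaesthesia by a surgeon blinded to genotype, and the apex of the heart was taken 4 weeks later. The groups are named by genotype and operation, as in Ctrl sham or KO TAC. Age and strain are not given in the sources used here, and each library is labelled with 1 animal number.

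Library totals ranged from 53169437 to 79404714 counts, and a member gene had 86 to 1922 counts in a library. Libraries of the same group differed by more than counting noise, with a chi-square per degree of freedom of 10.04 to 74.2 over 24 pairs. The summed level of 8 cardiomyocyte markers was 40900 to 62170 CPM, as heart tissue should show. CPM, the unit of a level, is the count of a gene scaled to the total of its library. Cardinal (Gm12295) was at 3.25 to 3.86 CPM in Ctrl sham, 0.297 to 0.553 CPM in KO sham and 2.69 to 8.02 CPM in Ctrl TAC. It was at 0.276 to 0.371 CPM in KO TAC 1, 2 and 3, but at 4.55 CPM in the library labelled KO TAC 4, which goes against its label. Ctrl TAC 2 stood apart on the second principal component of all tested genes, at -62.5, where the other 15 libraries lay between -3.40 and 13.8. Animal numbers started with 25 in Ctrl TAC 2, 3 and 4 and in the library labelled KO TAC 4. They started with 34 in Ctrl TAC 1 and KO TAC 1, 2 and 3. In Ctrl sham 1 to 4 they started with 36, 32, 32 and 33. In KO sham 1 to 4 they started with 33, 33, 33 and 34. Ctrl sham and Ctrl TAC therefore shared no series of numbers, and KO sham 4 alone of the KO sham libraries shared a series with KO TAC. In Ctrl hearts TAC against sham cannot be told apart from a difference between series, and in KO hearts it can hardly be. The meaning of these numbers is not given in the labels.

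The promoters were searched for the core of the interferon-stimulated response element, GAAANNGAAA, and for its reverse complement TTTCNNTTTC. The search covered the 250 bases before each annotated start in RefSeq, assembly GRCm38.p6. The core was present in 974 of 32817 windows (2.97%), or in 932 of 26994 genes (3.45%). The members had 9 RefSeq windows, and for 7 of them the bases after the start occurred in an annotated transcript of the gene. A missing core therefore refers to these starts only. The windows covered 8 of the 9 members, and Usp18 had no entry. The core was found in 5 of these 8, namely Ifit1, Ifit3, Isg15, Rsad2 and Bst2, and these letters were not in the windows of Ifit2, Irf7 and Oasl2. The stretches that hold it are shown because they carry the letters that were searched for, each 5′ to 3′ on the strand of its gene, with the matches in capitals.
Ifit1, chr19:34640755-34640843, plus strand: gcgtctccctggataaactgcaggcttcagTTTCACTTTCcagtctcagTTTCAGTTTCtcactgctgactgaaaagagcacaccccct
Ifit3, chr19:34583343-34583446, plus strand: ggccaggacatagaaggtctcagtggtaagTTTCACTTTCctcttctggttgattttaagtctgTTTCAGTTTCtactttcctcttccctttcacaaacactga
Isg15, chr4:156200845-156200926, minus strand: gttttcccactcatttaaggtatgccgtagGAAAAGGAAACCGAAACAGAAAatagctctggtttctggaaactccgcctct
Rsad2, chr12:26456533-26456602, minus strand: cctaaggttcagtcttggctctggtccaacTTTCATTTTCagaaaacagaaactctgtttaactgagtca
Bst2, chr8:71537557-71537632, minus strand: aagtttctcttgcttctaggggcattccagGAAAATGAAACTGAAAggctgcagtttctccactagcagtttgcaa
The Isg15 run of capitals is 3 overlapping matches over 22 bases and the Bst2 run is 2 overlapping matches over 16 bases. Ifit1 and Ifit3 had 2 separate matches each, with the same letters in both genes, and Rsad2 had 1. A match is a description of the letters and was not tested as a binding site.

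**Figure D1:**
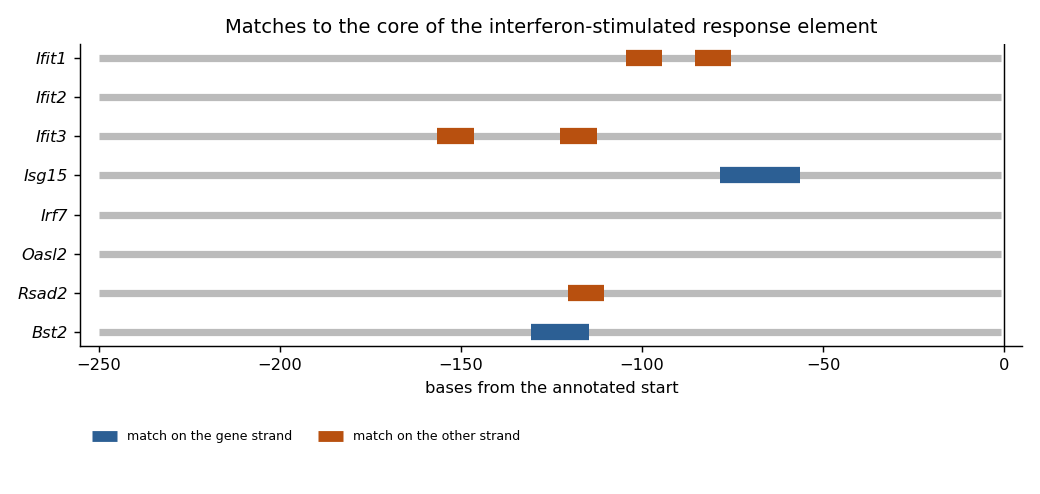
Position of each match to the response element core in the 250 bases (grey) before the annotated start of 8 member genes, in bases from the start. Matches on the strand of the gene are blue and matches on the other strand are orange. The 7 runs lie between 156 and 57 bases before the start, and the nearest one is in Isg15.

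Levels between genes were compared as CPM per kilobase of annotated exon, counting every base that is exon in any annotated transcript. For Irf7 these were 3776 bases, the whole span of the gene, and for Oasl2 they were 6374 bases. The level per kilobase is understated where the mRNA made is shorter, so the order of genes depends on these lengths. In Ctrl sham hearts Bst2, a membrane protein that tethers budding virus, was the most abundant member at 14.3 ± 2.52 CPM per kilobase (SD, n = 4). Its 4 libraries lay above those of every other member. Ifit3 followed at 5.10 ± 1.05, Ifit2 at 4.67 ± 0.727 and Rsad2 at 3.85 ± 0.483 CPM per kilobase (SD, n = 4), and the library ranges of neighbours in this order overlapped. Isg15 stood at 2.66 ± 0.199 CPM per kilobase. Ifit1 at 2.03 ± 0.410 and Irf7 at 1.84 ± 0.113 CPM per kilobase overlapped each other. Oasl2 at 1.27 ± 0.135 and Usp18 at 1.00 ± 0.150 CPM per kilobase were the lowest and did not overlap.

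The order of the members was the same in KO sham hearts. In Ctrl TAC hearts Irf7, at 2.71 ± 0.417 CPM per kilobase, changed places with Ifit1, at 2.16 ± 0.269 CPM per kilobase, and their libraries overlapped. In KO TAC hearts Isg15, at 4.28 ± 0.434 CPM per kilobase, lay above Rsad2, at 3.27 ± 0.252 CPM per kilobase, without overlap. In the other 3 groups Rsad2 was the higher of the pair.

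Whether pressure overload changed the ISGs was asked first in Ctrl hearts. All 9 members had a positive log2 fold change, and 2 were called higher, Irf7 and Oasl2 (edgeR quasi-likelihood test, Benjamini-Hochberg adjusted p under 0.05). Over all 18275 genes, 20.0% were called in this comparison and 10.4% were called higher. The median log2 fold change was 0.26 over the 9 members and 0.00 over all genes.

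Irf7 (ENSMUSG00000025498, chr7:141262706-141266481, minus strand) encodes the interferon regulatory factor that drives transcription of the interferon alpha genes. It was at 6.97, 6.83, 7.50 and 6.47 CPM in Ctrl sham 1 to 4 and at 11.1, 9.40, 11.9 and 8.45 CPM in Ctrl TAC 1 to 4. All 4 TAC libraries lay above all 4 sham libraries, and Irf7 was the 1 member without overlap, where 10.5% of all genes were higher without overlap. Irf7 rose by 0.55 log2 (SE 0.10, edgeR adjusted p 0.000446), or 1.47-fold. Irf7 shares 45 exon bases with Phrf1 on the other strand, and whether counting used strand is not given in the sources used here.

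Oasl2 (ENSMUSG00000029561, chr5:114896936-114912234, plus strand) encodes an oligoadenylate synthetase-like antiviral protein. It was at 7.94, 7.75, 9.35 and 7.37 CPM in Ctrl sham 1 to 4 and at 14.1, 8.53, 12.0 and 8.82 CPM in Ctrl TAC 1 to 4. Ctrl TAC 1 and 3 lay above every sham library, and Ctrl TAC 2 and 4 lay within the sham range. The log2 fold change was 0.42 (SE 0.13, edgeR adjusted p 0.0260). The call was lost in each fit without Ctrl sham 1, 2 or 4 or Ctrl TAC 1 or 3, which left 1 member called, and in the fit that left out Ctrl TAC 1 it fell to 0.27 log2 (edgeR adjusted p 0.105).

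A further 3 members had an unadjusted p under 0.05 in Ctrl hearts and were not called, in a comparison where 5858 of all 18275 genes (32.1%) had such a p. Their log2 fold changes were 0.26 for Ifit3 (edgeR adjusted p 0.138), 0.32 for Isg15 (edgeR adjusted p 0.144) and 0.31 for Rsad2 (edgeR adjusted p 0.115). The 95% interval was -0.22 to 0.41 log2 for Ifit1, -0.05 to 0.40 for Ifit2, -0.10 to 0.47 for Usp18 and -0.24 to 0.36 for Bst2.

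In Cardinal-KO hearts, 6 of the 9 members were called higher after TAC: Ifit1, Ifit2, Ifit3, Isg15, Irf7 and Oasl2. In each of these 6 genes all 4 KO TAC libraries lay above all 4 KO sham libraries. Over all 18275 genes, 34.3% were called, 17.8% were called higher and 18.0% were higher without overlap. The median log2 fold change was 0.66 over the 9 members and -0.00 over all genes. Without the library labelled KO TAC 4 the count was 7, and it was also 7 without that library and Ctrl TAC 2 together.

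The Ifit genes encode tetratricopeptide repeat proteins that bind foreign RNA and hold back its translation, and these 3 lie in 1 cluster on the plus strand of chromosome 19. Ifit2 (ENSMUSG00000045932, chr19:34550694-34576419) was at 15.3, 15.9, 15.3 and 15.2 CPM in KO sham 1 to 4 and at 24.3, 25.8, 29.5 and 23.1 CPM in KO TAC 1 to 4. Ifit2 rose by 0.73 log2 (SE 0.11, edgeR adjusted p 4.09e-05). The KO sham libraries were tightly grouped, with an SD of 0.309 CPM.

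Ifit3 (ENSMUSG00000074896, chr19:34583531-34588731) was at 6.59, 7.66, 7.06 and 8.05 CPM in KO sham 1 to 4 and at 10.5, 14.05, 12.3 and 12.3 CPM in KO TAC 1 to 4. Ifit3 rose by 0.74 log2 (SE 0.12, edgeR adjusted p 0.000111). Of its 100-base exon windows, 31.7% also occur in the neighbouring copy Ifit3b, so the division of reads between these genes is uncertain. Ifit3b itself had a log2 fold change of 0.57 (SE 0.12, edgeR adjusted p 0.000891).

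Ifit1 (ENSMUSG00000034459, chr19:34640871-34650009) was at 4.85, 6.00, 3.55 and 4.50 CPM in KO sham 1 to 4 and at 6.82, 7.58, 7.195 and 7.34 CPM in KO TAC 1 to 4. The rise was 0.61 log2 (SE 0.15, edgeR adjusted p 0.00390). Ifit1 shares 3.29% of its 100-base exon windows with Ifit1bl2, which had a log2 fold change of -0.37 (SE 0.14, edgeR adjusted p 0.0417).

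Oasl2 had the largest rise of the 9 genes in KO hearts. It was at 6.43, 6.56, 6.42 and 6.34 CPM in KO sham 1 to 4 and at 10.4, 12.1, 12.3 and 11.55 CPM in KO TAC 1 to 4. The log2 fold change was 0.85 (SE 0.13, edgeR adjusted p 5.66e-05), or 1.80-fold.

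Irf7 was at 6.85, 6.66, 5.905 and 6.99 CPM in KO sham 1 to 4 and at 10.3, 10.5, 11.0 and 9.93 CPM in KO TAC 1 to 4. The log2 fold change was 0.66 (SE 0.10, edgeR adjusted p 3.65e-05). Irf7 was called after TAC in both genotypes.

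Isg15 (ENSMUSG00000035692, chr4:156199424-156200818, minus strand) encodes the modifier that is attached to target proteins during the interferon response. It was at 2.12, 2.48, 1.88 and 1.51 CPM in KO sham 1 to 4 and at 3.31, 3.65, 2.88 and 3.10 CPM in KO TAC 1 to 4. Isg15 rose by 0.69 log2 (SE 0.15, edgeR adjusted p 0.00135). Usp18 (ENSMUSG00000030107, chr6:121245906-121270917, plus strand), the protease that removes Isg15 from proteins and damps signalling at the interferon receptor, was not called. It was at 2.51, 2.96, 3.10 and 2.58 CPM in KO sham 1 to 4 and at 3.79, 3.88, 3.33 and 3.03 CPM in KO TAC 1 to 4. KO TAC 4 lay within the sham range, and the log2 fold change was 0.33 (SE 0.14, edgeR adjusted p 0.0697). When the library labelled KO TAC 4 was left out, the difference was 0.40 log2 (edgeR adjusted p 0.0451). Usp18 shares 124 exon bases with Gm44148 on the other strand.

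Rsad2 and Bst2 were not called in KO hearts. Rsad2 (ENSMUSG00000020641, chr12:26442746-26456452, minus strand) encodes viperin, a radical SAM enzyme that makes a chain-terminating nucleotide. It was at 13.4, 16.3, 19.6 and 14.3 CPM in KO sham 1 to 4 and at 12.95, 13.6, 14.7 and 15.4 CPM in KO TAC 1 to 4. Its log2 fold change was -0.17 (SE 0.14, edgeR adjusted p 0.379), the 1 negative value among the members. Bst2 (ENSMUSG00000046718, chr8:71534255-71537456, minus strand) was at 15.0, 15.0, 16.4 and 11.3 CPM in KO sham 1 to 4 and at 15.5, 18.4, 13.6 and 12.4 CPM in KO TAC 1 to 4. Its log2 fold change was 0.05, with a 95% interval of -0.24 to 0.35.

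**Figure D2:**
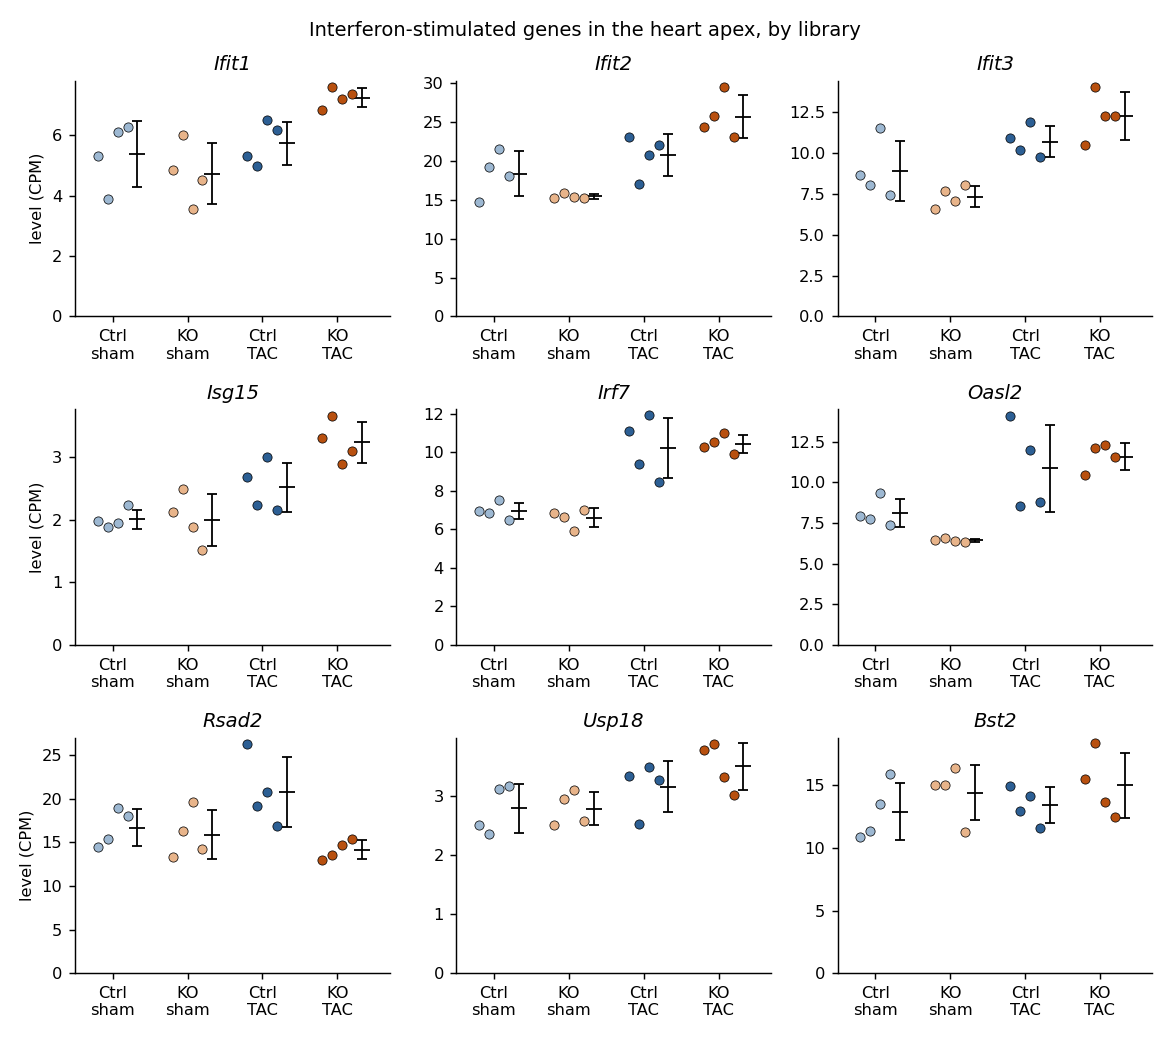
Level in CPM of each of the 9 genes in every library, 1 panel per gene on its own linear axis from 0, with the 4 groups along the x axis. Points are libraries in the order 1 to 4, and the bar beside each group is the mean with its SD. The KO TAC points lie above all KO sham points for Ifit1, Ifit2, Ifit3, Isg15, Irf7 and Oasl2, and Rsad2 is lower in KO TAC than in Ctrl TAC without overlap.

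The effect of Cardinal deletion without pressure overload was asked in sham hearts. None of the 9 members was called in edgeR (0% of all genes were called) or in DESeq2. Of the 9, 7 had a negative log2 fold change, and 3 had an unadjusted p under 0.05, where 479 of all 18275 genes did. The fold changes of these 3 were -0.33 log2 for Oasl2, -0.28 for Ifit3 and -0.25 for Ifit2, each with an edgeR adjusted p of 1.00. Oasl2 was the 1 member whose groups did not overlap, with 7.37 to 9.35 CPM in Ctrl sham and 6.34 to 6.56 CPM in KO sham. Over all genes 1.78% did not overlap between these groups.

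In TAC hearts, KO and Ctrl differed in 1 of the 9 members, Rsad2, which was lower in KO. Over all genes 2.68% were called and 1.32% were called lower, from 489 genes called, a count that was 63 to 733 with 1 library left out and lowest without Ctrl TAC 2. Rsad2 was at 26.3, 19.15, 20.7 and 16.8 CPM in Ctrl TAC 1 to 4 and at 12.95, 13.6, 14.7 and 15.4 CPM in KO TAC 1 to 4. Every KO TAC library lay below every Ctrl TAC library, and Ctrl TAC 1 was the highest of the 16 libraries. The log2 fold change was -0.55 (SE 0.13, edgeR adjusted p 0.0406). It was negative under all 24 alternatives, between -0.64 and -0.42, and was called under 12 of them, with an adjusted p of 0.00313 to 0.104.

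Within each series of animal numbers 1 genotype had a single library, so the values are given side by side and were not tested there. Among animals with numbers starting with 25, the library labelled KO TAC 4, whose Cardinal level goes against its label, had 15.4 CPM and Ctrl TAC 2, 3 and 4 had 19.15, 20.7 and 16.8 CPM. Among those starting with 34, KO TAC 1, 2 and 3 had 12.95, 13.6 and 14.7 CPM and Ctrl TAC 1 had 26.3 CPM. With the numbers starting with 25 as a term, the log2 fold change was -0.62 (edgeR adjusted p 0.104). The call was also lost without Ctrl TAC 1, 2 or 3, without KO sham 2 or any 1 of the KO TAC libraries, and the adjusted p was then at most 0.102. Cmpk2, the neighbour of Rsad2 on the chromosome and itself an ISG, had a log2 fold change of -0.19 (SE 0.14, edgeR adjusted p 0.525).

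The other 8 members had positive log2 fold changes in KO TAC against Ctrl TAC, and none of them was called. Ifit1 was at 5.30, 4.975, 6.49 and 6.17 CPM in Ctrl TAC 1 to 4, below every KO TAC library, with a log2 fold change of 0.33 (SE 0.15, edgeR adjusted p 0.235). Ifit2 was at 23.1, 17.0, 20.8 and 22.1 CPM in Ctrl TAC 1 to 4. Ctrl TAC 1 (23.09 CPM) and KO TAC 4 (23.10 CPM) were next to each other without overlap, and the log2 fold change was 0.31 (SE 0.11, edgeR adjusted p 0.124).

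With Rsad2, 3 of the 9 members did not overlap between KO TAC and Ctrl TAC, where 10.5% of all genes did not overlap. Isg15 was at 2.675, 2.24, 2.995 and 2.16 CPM in Ctrl TAC 1 to 4, which overlapped with KO TAC, and its log2 fold change was 0.36 (SE 0.15, edgeR adjusted p 0.186). Irf7 had a log2 fold change of 0.03 with a 95% interval of -0.17 to 0.23. For Oasl2 it was 0.10 with a 95% interval of -0.17 to 0.36. The median over the 9 members was 0.16 log2 and over all genes -0.00.

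Whether the response to TAC differed between the genotypes was tested as an interaction. None of the 9 members was called in edgeR, where 0.0109% of all genes were called, and 5 of the 9 had an unadjusted p under 0.05, where 2024 of all 18275 genes did. Ifit2 had the smallest of these p-values, with a difference of 0.56 log2 (SE 0.15, unadjusted p 0.00174, edgeR adjusted p 0.221). DESeq2 called Ifit2 alone of the members, at 0.56 log2 and an adjusted p of 0.0493. The differences of the other 4 were 0.52 log2 for Ifit1, 0.48 for Ifit3, 0.43 for Oasl2 and -0.48 for Rsad2, with edgeR adjusted p-values of 0.375, 0.316, 0.387 and 0.358. The call of 6 members after TAC in KO hearts and of 2 in Ctrl hearts is therefore not, by this test, a shown difference between genotypes.

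**Figure D3:**
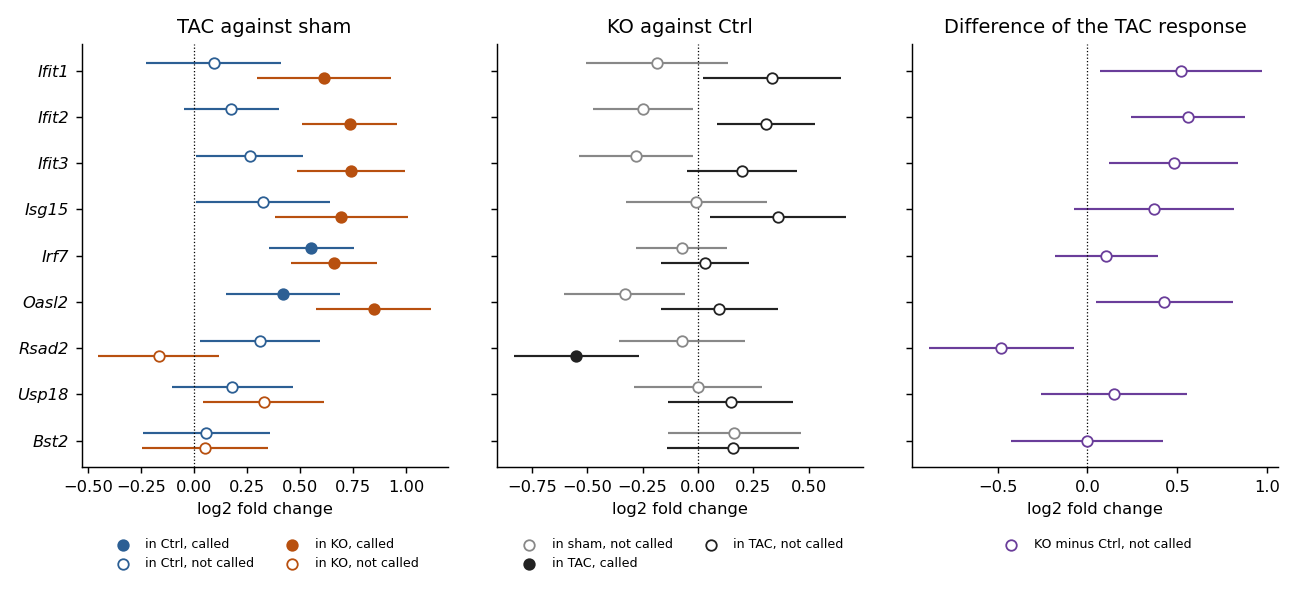
Log2 fold change of each of the 9 genes with its 95% interval (horizontal line) for TAC against sham in each genotype (left), KO against Ctrl in each operation (middle) and the difference of the TAC response between genotypes (right). Filled points were called at an adjusted p under 0.05 and open points were not. In the left panel 6 genes are filled in KO and 2 in Ctrl, in the middle panel Rsad2 in TAC is filled at -0.55, and in the right panel no point is filled.

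Over the 16 libraries the 9 genes varied together to different degrees. Of the 36 pairs, 34 had a positive Pearson correlation of log2 CPM, with a median r of 0.65 and the highest value, 0.92, between Irf7 and Oasl2. Rsad2 had a median r of 0.10 with the other 8 genes and Bst2 a median of 0.21, and for each of the other 7 genes the median lay between 0.65 and 0.74. After the mean of each group was subtracted, 35 pairs were positive with a median r of 0.32. Then the median of Rsad2 was 0.34, within the range of 0.23 to 0.46 of the other 8 genes. These correlations are a description over libraries that share surgery groups, operation and scaling.

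The mean z-score over the 9 genes gave each library 1 value. It ran from -0.91 to 0.14 in Ctrl sham, from -1.10 to -0.36 in KO sham, from -0.19 to 0.89 in Ctrl TAC and from 0.53 to 1.18 in KO TAC. Ctrl TAC 1 and 3, at 0.89 and 0.86, lay within the KO TAC range, and Ctrl TAC 2 and 4, at -0.19 and 0.01, lay within the Ctrl sham range. Ctrl TAC 1 and 3 do not share a series of animal numbers.

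**Figure D4:**
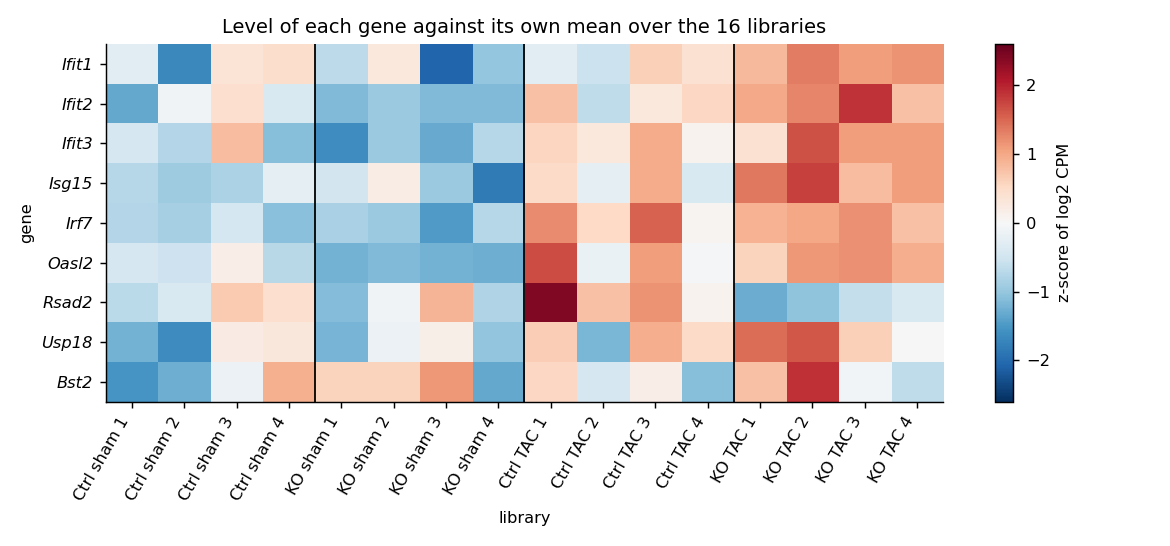
Level of each of the 9 genes (y axis) in each of the 16 libraries (x axis, groups divided by black lines), as the z-score of log2 CPM over the 16 libraries, red above and blue below the mean of the gene. KO TAC libraries are red for most genes but blue for Rsad2, and within Ctrl TAC libraries 1 and 3 are redder than 2 and 4.

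Other genes were ranked by the Pearson correlation of their log2 CPM with this mean z-score, among the 13397 genes whose average log2 CPM was 0 or more. The 10 most alike over the 16 libraries were Arhgdib, Lgals9, Otulinl, Ifi27l2a, Ctss, Fez2, Lgals3, Sp140, Parp9 and Ptprc, with r from 0.95 to 0.93. Without the 2 libraries farthest from the median z-score, KO TAC 2 and KO sham 4, their r was 0.93 to 0.91. Ptprc encodes the pan-leukocyte antigen CD45, Ctss the protease cathepsin S of antigen-presenting cells, and Lgals3 the macrophage lectin galectin 3. Lgals9, Ifi27l2a and Parp9 are on the list of other type I ISGs described further on. After group means were subtracted, the most alike included Sp140, Lgals9, Gm15536, Ncoa7, Trim30a, Lgals3, Ifi44, Ly6e and Epsti1, with r from 0.87 to 0.81. Without Ctrl sham 3 and Ctrl TAC 1, the 2 libraries then farthest from the median, the r of these genes was 0.70 to 0.89, lowest for Ly6e. Of these, Lgals9, Trim30a, Ifi44, Ly6e and Epsti1 are known ISGs, and Sp140, Lgals9 and Lgals3 were in both lists.

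Markers of some cell types moved with TAC as well, where over all genes 10.4% were called higher in Ctrl and 17.8% in KO hearts. In bulk tissue, more cells of a type and more RNA per cell cannot be told apart. The summed level of 11 macrophage markers was 188 to 231 CPM in Ctrl sham, 178 to 206 CPM in KO sham, 254 to 277 CPM in Ctrl TAC and 237 to 313 CPM in KO TAC, and no marker was at 0 in any group. Of the 11, 5 were called higher after TAC in Ctrl hearts and 8 in KO hearts, and in KO against Ctrl TAC 1 was called, Cd163, which was lower (log2 fold change -0.61, edgeR adjusted p 0.0347). Among them C1qb, a complement subunit made by macrophages, had log2 fold changes of 0.54 in Ctrl and 0.79 in KO hearts (edgeR adjusted p 0.000592 and 5.81e-06).

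The 6 fibroblast markers summed to 486 to 549 CPM in Ctrl sham, 494 to 528 CPM in KO sham, 692 to 991 CPM in Ctrl TAC and 997 to 1174 CPM in KO TAC, none at 0 in any group, with 3 called higher in Ctrl and 6 in KO hearts. Of 8 cardiomyocyte markers, 5 fell after TAC in Ctrl and 6 in KO hearts, none was called higher, and none was at 0 in any group. Their sum went from 53900 to 62170 CPM in Ctrl sham and 55040 to 60090 CPM in KO sham to 47650 to 52280 CPM in Ctrl TAC and 40900 to 43680 CPM in KO TAC. The 5 B cell markers summed to 0.854 to 1.59 CPM in sham hearts, 1.30 to 1.84 CPM in Ctrl TAC and 2.06 to 3.42 CPM in KO TAC, none at 0, and 4 were called higher after TAC in KO hearts. None of 6 endothelial, 4 monocyte, 5 T and NK cell, 5 erythroid and 1 adipocyte markers tested was called after TAC in either genotype. At most 1 marker was called in each direction for dendritic cells, plasmacytoid dendritic cells, neutrophils, and pericytes with smooth muscle. For plasmacytoid dendritic cells it was Cox6a2, at -0.27 log2 in Ctrl and -0.46 log2 in KO hearts. The mean of Cox6a2 in Ctrl sham was 783 CPM, while Siglech and Ccr9 of the same list were at 0.157 and 0.216 CPM. Its call was therefore not taken as a measure of these cells. In KO against Ctrl TAC, 2 cardiomyocyte markers were called lower, where 2.68% of all genes were called. They were Myh6 at -0.39 log2 and Ryr2 at -0.34 log2 (edgeR adjusted p 0.0184 and 0.0374). The fibroblast marker Col1a2 was called higher there, at 0.40 log2 (edgeR adjusted p 0.0375). The part of these cell types in the levels of the 9 genes was not tested.

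The rest of the pathway was read from lists by role, and none of the 9 members is counted in them. Interferon ligands were near the limit of detection. Of 21 interferon genes of types I, II and III, 0 passed the filter, 8 had at least 1 count, and all 21 together had 61 counts over the 16 libraries. Ifnb1 had 6 counts in all and Ifng had 7.

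Among 18 receptor and JAK-STAT genes, 3 rose and 3 fell after TAC in Ctrl hearts, and 4 rose and 3 fell in KO hearts. Over all genes 20.0% were called in Ctrl hearts, 10.4% of all genes higher, and 34.3% in KO hearts, 17.8% higher. Ptpn6, the phosphatase SHP-1 of blood cells, had log2 fold changes of 0.60 in Ctrl and 1.01 in KO hearts (SE 0.14 in both, edgeR adjusted p 0.00536 and 2.63e-05). Stat3 rose by 0.40 and 0.48 log2 and Ifngr1, a subunit of the interferon gamma receptor, by 0.40 and 0.49 log2 in Ctrl and KO hearts. Jak1 had log2 fold changes of -0.33 in Ctrl and -0.34 in KO hearts (edgeR adjusted p 5.93e-05 and 1.39e-05). For Il10rb, a subunit of the interferon lambda receptor, they were -0.28 and -0.35 (edgeR adjusted p 0.000660 and 3.68e-05). The transcription factors Stat2 and Irf9 were not called in either genotype. In KO hearts the log2 fold change was 0.19 for Stat2 (SE 0.07, edgeR adjusted p 0.0509) and 0.12 for Irf9 (SE 0.11).

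Among 23 genes of nucleic acid sensing and IRF induction, 1 rose in Ctrl hearts, Irf8, a myeloid transcription factor, by 0.45 log2 (SE 0.12, edgeR adjusted p 0.0122). In KO hearts 9 rose and none fell, where over all genes 10.4% were called higher in Ctrl and 17.8% in KO hearts. Irf8 was among them, again at 0.45 log2 (edgeR adjusted p 0.00735). The largest of these rises were 0.91 log2 for the Z-nucleic acid sensor Zbp1 (SE 0.30, edgeR adjusted p 0.0272), 0.78 log2 for Irf5 (SE 0.17, edgeR adjusted p 0.00166), 0.73 log2 for Dhx58, the RNA sensor LGP2 (SE 0.22, edgeR adjusted p 0.0138), and 0.68 log2 for Sting1, the adaptor of cytosolic DNA sensing (SE 0.18, edgeR adjusted p 0.00553). Dhx58 overlaps an antisense gene, and reads of the pair may not be told apart. Other named list genes that overlap another gene in position include Irf5 (Tnpo3), Stat3 (Stat5a), B2m (Patl2) and Tap1 (Psmb9), with the same limit. Irf8 was not called without Ctrl sham 1 or Ctrl TAC 1, when the count in Ctrl hearts was 0, and without Ctrl sham 3 or 4 the count was 2. In KO hearts it was 5 with the term for animal numbers starting with 33.

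Among 65 other type I ISGs, 10 rose in Ctrl hearts and none fell, and 27 rose and 3 fell in KO hearts. The share of all genes called higher was 10.4% in Ctrl and 17.8% in KO hearts. Ifi27l2a rose by 0.69 log2 in Ctrl (SE 0.14, edgeR adjusted p 0.00130) and 1.35 log2 in KO hearts (SE 0.14, edgeR adjusted p 6.54e-07). Its level was 6.23 ± 0.612 CPM in Ctrl sham, 10.1 ± 2.01 in Ctrl TAC, 5.29 ± 0.379 in KO sham and 13.5 ± 2.395 CPM in KO TAC (SD, n = 4), and its change was the largest called in this list in both genotypes among genes whose average log2 CPM was 0 or more. Slfn2, a schlafen gene of lymphoid and myeloid cells, rose in both, by 0.36 log2 in Ctrl hearts and 0.74 log2 in KO hearts. In Ctrl hearts the other named genes were Shisa5 at 0.39 log2 and Mov10, an RNA helicase, at 0.35 log2. In KO hearts the other 2 were Slfn9 at 0.78 log2 and Epsti1 at 0.76 log2 (SE 0.20 and 0.18, edgeR adjusted p 0.00641 and 0.00284). Below an average log2 CPM of 0, some genes of this list had larger called changes than Ifi27l2a. They were Mx1 in Ctrl hearts, at 1.24 log2 (SE 0.23, edgeR adjusted p 0.000987), and Apol9a in KO hearts, at 1.52 log2 (SE 0.55, edgeR adjusted p 0.0389). The count of 10 in Ctrl hearts was 5 without Ctrl sham 1 or Ctrl TAC 3, 6 without Ctrl sham 2 and 5 with the term for animal numbers starting with 25. The count of 3 lower in KO hearts was 1 in each fit without KO sham 2 or 4 or KO TAC 1, 3 or 4.

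Genes tied to interferon gamma formed the next list. Of 35 tested, 1 rose and 3 fell in Ctrl hearts, and 3 rose and 2 fell in KO hearts. Over all genes a larger share was called, 20.0% in Ctrl and 34.3% in KO hearts. Psmb10, a subunit of the immunoproteasome, rose in both, by 0.44 log2 in Ctrl hearts and 0.60 log2 in KO hearts, while Psme1, the proteasome activator subunit PA28 alpha, had log2 fold changes of -0.31 and -0.50. The GTPases Iigp1 and Gbp5 had log2 fold changes of -0.48 and -0.36 in Ctrl hearts (edgeR adjusted p 0.00561 and 0.0372). In KO hearts Gbp5 was called as well, at -0.33 log2 (edgeR adjusted p 0.0368), and Iigp1, at -0.10 log2, was not (edgeR adjusted p 0.520). In KO hearts B2m, the light chain of MHC class I, rose by 0.44 log2 and the peptide transporter Tap1 by 0.34 log2 (edgeR adjusted p 0.0142 and 0.0266). Of the 4 partners of Isg15 conjugation other than Usp18, 1 rose in KO hearts, the conjugating enzyme Ube2l6, by 0.52 log2 (SE 0.13, edgeR adjusted p 0.00408), and none was called in Ctrl hearts, in edgeR or in DESeq2. All 4 partners, Uba7, Ube2l6, Herc6 and Trim25, are also counted among the other type I ISGs. So is the RNA sensor gene Ifih1, which is on the sensing list. Irf1 of the sensing list and Socs1 of the receptor list are also counted among the genes tied to interferon gamma. Among genes tied to interferon gamma, 6 fell in Ctrl and 4 in KO hearts without Ctrl TAC 1, 1 fell in KO hearts without KO sham 2 or 3, and 1 rose there without KO TAC 2.

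These lists hold 138 different tested genes, and none was called in edgeR for KO against Ctrl in sham, in TAC or for the interaction. At an unadjusted p under 0.05 there were 4 in sham (2.90%), all lower in KO, where 479 of all 18275 genes (2.62%) had such a p. In TAC there were 19 (13.8%), 16 of them higher in KO, against 3380 of all genes (18.5%). For the interaction there were 16 (11.6%), 14 of them positive, against 2024 of all genes (11.1%). In TAC hearts DESeq2 called 1 sensing gene and 2 other type I ISGs higher and 1 gene tied to interferon gamma lower in KO, counted per list. Without the library labelled KO TAC 4 and Ctrl TAC 2, 28 of the 65 other type I ISGs rose after TAC in KO hearts and 9 in Ctrl hearts.

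**Figure D5:**
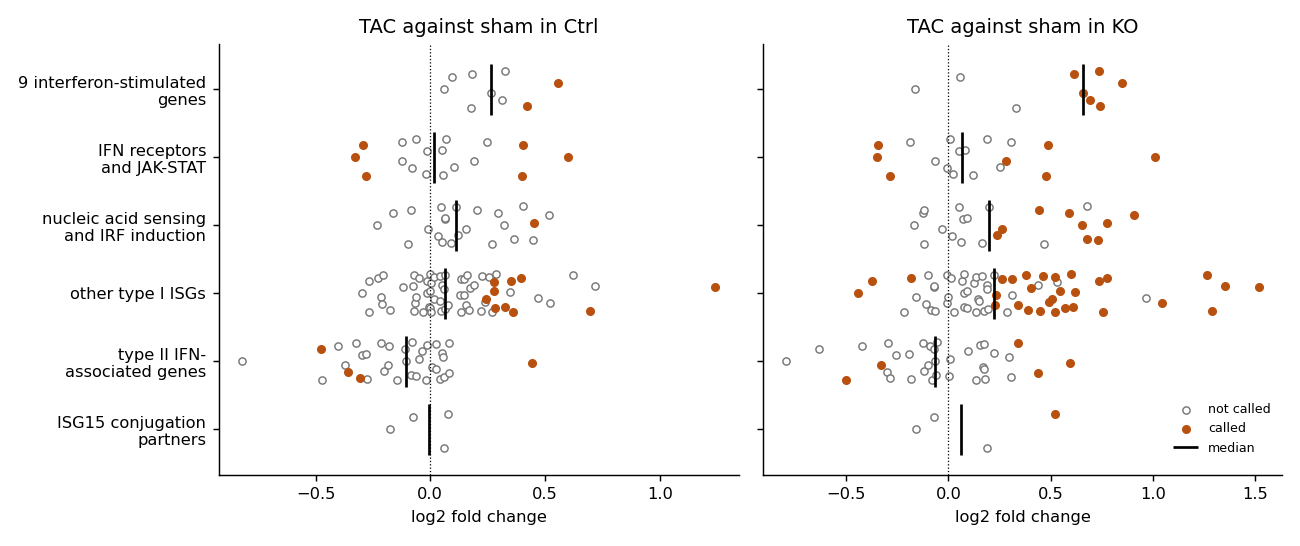
Log2 fold change of every tested gene (points) after TAC in Ctrl (left) and KO hearts (right), for the 9 members and 5 lists of other pathway genes, with filled points called at an adjusted p under 0.05 and a vertical line at the median of each list. The members' median is 0.26 in Ctrl and 0.66 in KO hearts, and the median of the 65 other type I ISGs is 0.07 and 0.22.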

How the data were processed

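Heart apex RNA of 16 mice was poly(A)-selected and sequenced as paired 150-base reads. The authors deposited counts that were not normalized, in a single table with a row per Ensembl gene and a column per mouse. The submitters' processing notes name cutadapt 2.3, HISAT2 2.1.0, edgeR 3.26.1 and GRCm38. The counting program, the annotation and strand use are not given in the sources used here. Positions and names came from GENCODE M21 (GRCm38), which matched 99.5% of the identifiers, and the unmatched ones held 0.00355% of counts.

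Genes were filtered with filterByExpr and scaled by TMM in edgeR 4.0.16 (R 4.3.3). Levels are in CPM, the count of a gene scaled by the cpm function of edgeR to the TMM-adjusted library total. A quasi-likelihood model with a mean per group was fitted to all 16 libraries (glmQLFit, robust), 5 contrasts were tested two-sided (glmQLFTest) over 18275 genes, and the call was a Benjamini-Hochberg adjusted p below 0.05. SE is the absolute log2 fold change divided by the square root of F. Log2 CPM for correlations and z-scores used a prior count of 2. The script was tested on simulated data. Groups came from the labels, and replicates were numbered in order of the samples.

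The members and the lists (170 pathway and 81 marker genes) were chosen with earlier results of these data known. Named were the 9 members, Cardinal, the 4 largest called changes per pathway list and TAC contrast (average log2 CPM of at least 0) and the 10 genes most like the members by each measure, of which 1 is not reported here. Stat2, Irf9, Cmpk2, Ifit3b, Ifit1bl2, C1qb, Cd163, Ifnb1 and Ifng were named after their values were seen. So were Myh6, Ryr2, Col1a2, Cox6a2, Siglech, Ccr9, Mx1 and Apol9a. Alternatives were RLE scaling, no filter beyond 1 count, a minimum of 10 counts in each library, a threshold of 0.01, DESeq2 1.42.0, terms for animal numbers starting with 25 or 33, the 8 libraries of a comparison, each library left out (16 fits) and, added after seeing the data, Ctrl TAC 2 and KO TAC 4 left out together.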

Additional observations from a re-analysis of the deposited data

Results flagged for a closer look

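The levels of the 9 genes and of Cardinal in each group were searched for a library far from the other 3, by Dixon's ratio of a gap to the whole range against its 95% critical value, in 40 tests. Chance alone flags about 1 in 20 groups. For the members 1 library stood out: Ifit2 was at 15.9 CPM in KO sham 2, while the other KO sham libraries lay between 15.2 and 15.3 CPM, a gap of 0.920 of the whole range in a group whose spread was small.

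Cardinal (Gm12295) stood out in a library of each TAC group. It was at 8.02 CPM in Ctrl TAC 1, with the others at 2.69 to 3.37 CPM, and at 4.55 CPM in the library labelled KO TAC 4, with the others at 0.276 to 0.371 CPM. In Ctrl TAC 1, Rsad2 and Oasl2 had their highest values of the 16 libraries. In the library labelled KO TAC 4, Ifit1, Ifit2, Ifit3, Isg15, Irf7 and Oasl2 lay above all KO sham libraries, as in the other KO TAC libraries. Ctrl TAC 3 also lay above all KO sham libraries in each of these genes. This position therefore does not tell the genotypes apart.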

How the results depend on the processing

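With 4 libraries per group, the SE of a member's log2 fold change after TAC in Ctrl hearts was 0.10 to 0.15. The 6 calls after TAC in KO hearts and that of Irf7 in Ctrl hearts were kept under all 24 alternatives. In Ctrl hearts the count of members called after TAC was 1 at an adjusted p under 0.01 and 1 in the fit to 8 libraries, and 1 to 3 when 1 library was left out. In KO against Ctrl TAC it was 0 under the stricter threshold, with no filter, with the term for numbers starting with 25, in the fit to 8 libraries and without Ctrl TAC 2 and KO TAC 4, and 0 to 1 when 1 library was left out. For the interaction it was 1 in DESeq2. All genes called were 3652 and 2076 (adjusted p under 0.01) after TAC in Ctrl hearts, and 489, 1183 (DESeq2), 285 (no filter), 154 (8 libraries), 109 (both libraries out), 19 (adjusted p under 0.01) and 12 (term for 25) in KO against Ctrl TAC, where they were 63 to 733 with 1 library left out (63 without Ctrl TAC 2, 84 without KO TAC 3). For the interaction they were 2, 132 in DESeq2 and 0 to 18 with 1 library left out. At an adjusted p under 0.01, the other type I ISGs called higher after TAC were 4 in Ctrl and 17 in KO hearts. The cause was not tested.

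The sign turned for values that were not called. In KO against Ctrl sham, Usp18 was -0.0021 with no filter and -0.10 with the term for 33, and Bst2 was -0.058 with that term. In KO against Ctrl TAC, Irf7 was -0.031 and Oasl2 -0.019 with the term for 25, and Oasl2 was -0.0016 without both libraries. The Bst2 interaction was 0.0078 with no filter, 0.22 with the term for 33 and 0.058 without both libraries. With 1 library left out, the log2 ranges after TAC were -0.015 to 0.17 for Bst2 and -0.035 to 0.17 for Ifit1 in Ctrl and -0.058 to 0.13 for Bst2 in KO hearts. They were -0.070 to 0.067 for Usp18, -0.13 to 0.10 for Isg15 and -0.19 to 0.0047 for Rsad2 in KO against Ctrl sham, -0.050 to 0.12 for Irf7 and -0.0030 to 0.25 for Oasl2 in KO against Ctrl TAC, and -0.12 to 0.076 for the Bst2 interaction. No paired analysis was possible because replicate numbers name libraries in order and pair nothing.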
